A study of Mus musculus with 16 samples.

Results

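Both drugs given to mice on a high-fat diet (HFD), metformin and resveratrol, were taken as 1 pool and set against the HFD alone, to describe what the drug-treated fat pads shared. The pool held 7 of the 16 libraries of the series: 4 from HFD with metformin and 3 from HFD with resveratrol, after 1 other resveratrol library, with Crisp1, an epididymal gene, above 1000 as counts scaled to a common library total (CPM), had been left out. HFD alone had 4 libraries, and the 4 normal diet libraries are given only as levels, outside the tests. The RNA came from epididymal white fat, a visceral pad, of C57BL/6 mice, bought as C57BL/6J males at 6 weeks of age and about 22 g. All drug and HFD mice ate a diet with 60% fat for 8 weeks, at which point insulin resistance had been checked by glucose tolerance, and the drug groups were then treated for 6 weeks. Dose and route are not given in the labels, and neither are age at collection, diet during treatment, nor a vehicle for the HFD mice. Titles and design name epididymal fat, whereas the extraction text names retina and the treatment text skeletal muscle.

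Metformin is an antidiabetic biguanide that acts on mitochondrial respiration and on AMP-activated kinase (AMPK), and resveratrol is a plant polyphenol studied for its effects on sirtuin deacetylases and AMPK. Fat that expands on a rich diet holds larger adipocytes, secretes more leptin and gathers macrophages around dying adipocytes, where they take up lipid, build up lysosomes and switch on genes such as Trem2, Gpnmb and Itgax. The pad is dissected from beside the male reproductive tract, whose efferent ducts are lined by motile ciliated cells.

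Libraries held 13734379 to 19567404 mRNA counts with the drugs and 17025308 to 20531032 in HFD. Adipocyte genes summed to 27390 to 48190 CPM with the drugs and 40580 to 46750 CPM in HFD, while retina markers summed to at most 15.01 CPM with the drugs and 10.8 CPM in HFD, and skeletal muscle markers to at most 163 CPM and 168 CPM. The libraries of a group were not alike. Metformin 2, 4 and unmatched and resveratrol 2 carried 701 to 2119 CPM of motile ciliated epithelium genes, against 16.1 to 22.2 CPM in the other 3 drug libraries and 20.9 to 22.8 CPM in HFD, and the first principal component (56.6% of the variance) set these 4 apart. They are called the cilia-rich libraries. The HFD library whose code is in no title, called HFD unmatched, lay at -13.8 on the second component (16.2%), within the drug libraries (-34.8 to 29.7) and apart from HFD 1 to 3 (30.3 to 42.99). The other unmatched code, in the metformin group, is called metformin unmatched. The codes of HFD 1, 2 and 3 share their first number and that of HFD unmatched differs; metformin 1 and unmatched share theirs, and so do resveratrol 1 and 2. The labels do not say what the number marks, so whether these libraries are independent of one another is not known, and p-values take them as independent. Crisp1 lay at 15.2 to 16.3 CPM in the metformin libraries, at 0 to 0.178 CPM in the 3 resveratrol libraries and at 0 in HFD. Other CPM values are scaled by TMM factors, and means are given ± SD over the 7 drug and 4 HFD libraries. The part of these features in the results was not tested beyond the values without the libraries concerned.

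Of 16802 genes tested, 2275 (13.5%) passed an adjusted p of 0.05 between the pool and HFD with edgeR's quasi-likelihood test: 812 (4.83%) were higher with the drugs and 1463 (8.71%) lower. More than 2-fold changes numbered 327 upward and 521 downward, and the median log2 fold change over all genes was 0.05. The 7 drug libraries lay wholly on one side of the 4 HFD libraries for 1637 genes (9.74%; 4.2% higher and 5.54% lower), of which 1220 were called, 459 higher and 761 lower. HFD unmatched was the lowest of the HFD libraries, and so nearest to the drugs, for 1355 of the 1463 genes called lower (92.6%), against 34.6% over all genes tested. It was the highest of the HFD libraries for 517 of the 812 called higher (63.7%), against 36.2% over all genes. Leaving out HFD 1, HFD 2 or HFD 3 left 809, 812 and 682 genes, and leaving out HFD unmatched gave 2939.

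**Figure D1:**
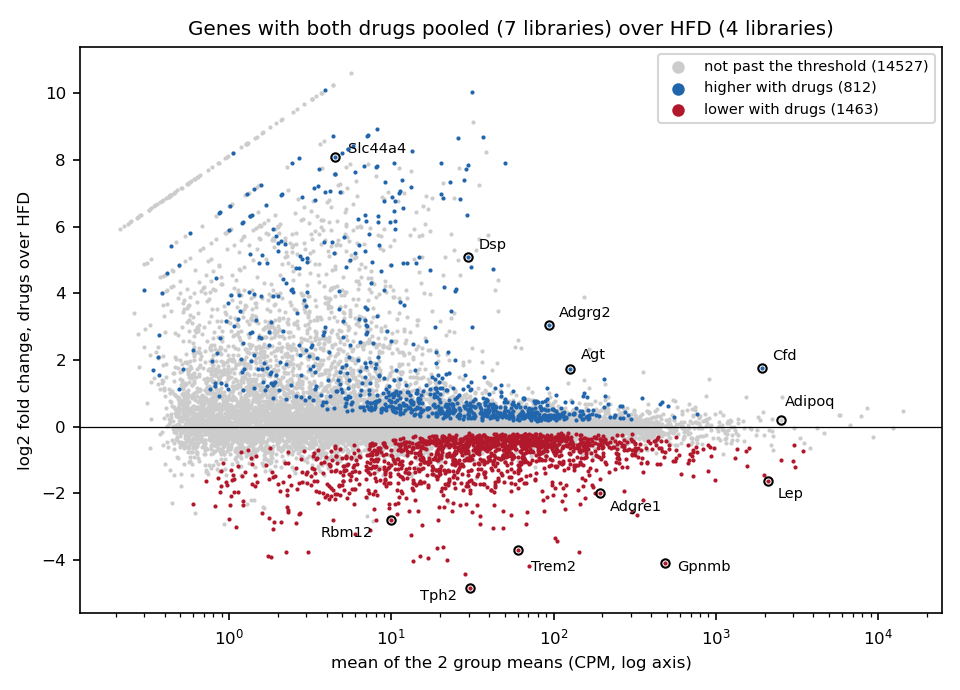
Each point is a gene, with the mean of the drug and HFD group means in CPM on a log axis and its log2 fold change, drugs over HFD, on the vertical axis. Blue points are the 812 genes called higher and red points the 1463 called lower; decreases spread over all levels, while the steepest increases sit at low means.

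The drugs were also compared with each other in a fit with 3 groups. No gene passed between metformin and resveratrol (0 of 16802, 0% called, 872 at an unadjusted p under 0.05, 41 with DESeq2), which does not show that the drugs act alike. In the same fit, where each drug shares the HFD controls with the other, metformin alone differed from HFD in 1839 genes and resveratrol alone, with 3 libraries, in 1. That count turned on the threshold of 0.05. With resveratrol, Gpnmb, Trem2, Adgre1, Lep and Agt, described below, each had an adjusted p of 0.0514. Their log2 fold changes were -4.44, -3.86, -1.96, -1.74 and 1.62 with resveratrol and -3.88, -3.60, -1.99, -1.56 and 1.80 with metformin. Other genes lay further off, such as Ppargc1a (adjusted p = 0.0938 with resveratrol). Genes named in the following therefore carry both drugs' own values where these help, and the fold changes side by side share their HFD libraries.

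Macrophage genes were lower in drug-treated fat. Among 25 pan-macrophage markers, 14 fell and none rose, with a median log2 fold change of -0.73. Adgre1, the surface receptor F4/80, stood at 91.7, 59.2, 65.1 and 94.1 CPM in metformin 1, 2, 4 and unmatched and 82.4, 74.7 and 79.9 CPM in resveratrol 1, 2 and 3, against 336, 387, 398 and 112 CPM in HFD 1, 2, 3 and unmatched. For Adgre1, the log2 fold change was -1.98 (SE 0.28, adjusted p = 0.00457). All 7 drug libraries were below all 4 HFD libraries, but HFD unmatched was close to them. Cd68, a lysosomal membrane glycoprotein of phagocytes, had 34.9, 21.9, 27.2 and 39.6 CPM in metformin 1, 2, 4 and unmatched and 26.8, 32.3 and 34.2 CPM in resveratrol 1, 2 and 3, against 149, 185, 187 and 45.4 CPM in HFD 1, 2, 3 and unmatched. For Cd68, the log2 fold change was -2.19 (SE 0.31, adjusted p = 0.00457). It too showed no overlap, with HFD 1 to 3 far above HFD unmatched. Spi1, the myeloid transcription factor PU.1, averaged 12.9 ± 2.19 CPM with the drugs and 48.4 ± 20.8 CPM in HFD (log2 fold change -1.91, adjusted p = 0.00457). Tyrobp, the signalling adaptor of Trem2, averaged 17.2 ± 3.66 CPM with the drugs and 60.1 ± 28.2 CPM in HFD (log2 fold change -1.80, adjusted p = 0.00465). In whole tissue, fewer macrophages and less of these RNAs per macrophage cannot be told apart. Markers of resident macrophages, Lyve1, Timd4, Folr2, Cd163 and Mertk, did not pass (adjusted p = 0.1001 to 0.9435).

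Genes of lipid-associated macrophages also fell: 17 of 25 passed as lower, none rose, and the median log2 fold change was -1.22. Several members also stand in the lysosomal and receptor lists. Gpnmb, a transmembrane glycoprotein of lipid-loaded macrophages, had 47.8, 45.3, 39.9 and 118 CPM in metformin 1, 2, 4 and unmatched and 33.8, 64.5 and 28.9 CPM in resveratrol 1, 2 and 3, against 1011, 1297, 1248 and 123 CPM in HFD 1, 2, 3 and unmatched. For Gpnmb, the log2 fold change was -4.09 (SE 0.56, adjusted p = 0.00457). HFD 1 to 3 exceeded 1000 CPM, and HFD unmatched lay just above metformin unmatched, the highest drug library. Trem2, the lipid-sensing receptor of these cells, had 7.6, 7.99, 6.82 and 14.5 CPM in metformin 1, 2, 4 and unmatched and 6.86, 11.4 and 4.98 CPM in resveratrol 1, 2 and 3, against 123, 148, 162 and 15.8 CPM in HFD 1, 2, 3 and unmatched. For Trem2, the log2 fold change was -3.71 (SE 0.50, adjusted p = 0.00457). Its order was the same, with no overlap and a narrow gap between HFD unmatched and metformin unmatched. Itgax, the integrin CD11c, averaged 17.8 ± 10.1 CPM with the drugs and 192 ± 107 CPM in HFD (log2 fold change -3.42, adjusted p = 0.00457), and here metformin unmatched (39.3 CPM) lay above HFD unmatched (36.3 CPM). Mmp12, macrophage elastase, averaged 19.7 ± 12.6 CPM with the drugs and 268 ± 151 CPM in HFD (log2 fold change -3.77, adjusted p = 0.00457), also with overlap. Lgals3, galectin-3, singled out like Lipa and Lgmn after its values were seen, ran at 67.7 to 118 CPM in the drug libraries, against 158 to 823 CPM in HFD (log2 fold change -2.64, adjusted p = 0.00457) without overlap. By drug, the log2 fold change of Gpnmb was -3.88 with metformin and -4.44 with resveratrol, that of Trem2 -3.60 with metformin and -3.86 with resveratrol and that of Itgax -3.23 with metformin and -3.74 with resveratrol.

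Promoter windows are shown for 4 of these macrophage genes that moved together, from 250 bases before to 50 after the transcription start (RefSeq, GRCm38.p6, each in the direction of its gene). Of 161 named genes, 121 had a window. Capitals mark matches to AP-1 (TGACTCA, either strand, in 5.17% of 27025 mouse promoter windows) and to a PU.1 core (GAGGAAG, either strand, in 13.5%); the E-box CACGTG (7.24%) was searched too. The motifs do not overlap each other here.
Gpnmb, chr6:49036268-49036567, plus strand: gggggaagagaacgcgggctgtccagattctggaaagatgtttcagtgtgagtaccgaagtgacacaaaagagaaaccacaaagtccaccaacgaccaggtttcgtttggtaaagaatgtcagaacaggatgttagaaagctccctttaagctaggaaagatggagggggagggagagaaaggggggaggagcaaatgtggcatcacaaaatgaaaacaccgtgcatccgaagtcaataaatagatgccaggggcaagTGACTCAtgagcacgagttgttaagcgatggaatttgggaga
Trem2, chr17:48346151-48346450, plus strand: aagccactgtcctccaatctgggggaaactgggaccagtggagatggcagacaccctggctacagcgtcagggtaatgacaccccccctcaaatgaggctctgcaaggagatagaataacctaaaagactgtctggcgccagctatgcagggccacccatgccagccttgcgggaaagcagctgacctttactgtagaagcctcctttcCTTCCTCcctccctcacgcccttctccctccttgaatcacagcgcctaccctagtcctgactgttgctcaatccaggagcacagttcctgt
Itgax, chr7:128129300-128129599, plus strand: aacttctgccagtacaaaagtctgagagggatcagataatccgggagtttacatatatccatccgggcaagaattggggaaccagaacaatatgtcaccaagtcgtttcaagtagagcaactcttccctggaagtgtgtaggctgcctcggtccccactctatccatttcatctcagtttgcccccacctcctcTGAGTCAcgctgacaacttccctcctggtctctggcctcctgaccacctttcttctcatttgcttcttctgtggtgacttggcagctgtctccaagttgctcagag
Cd68, chr11:69666121-69666420, minus strand: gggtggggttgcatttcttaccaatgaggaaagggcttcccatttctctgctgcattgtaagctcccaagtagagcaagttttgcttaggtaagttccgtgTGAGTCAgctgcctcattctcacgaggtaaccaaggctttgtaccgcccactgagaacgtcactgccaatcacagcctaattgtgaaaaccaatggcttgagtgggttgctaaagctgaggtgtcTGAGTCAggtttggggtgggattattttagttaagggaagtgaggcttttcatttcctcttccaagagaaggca
Gpnmb held an AP-1 match, with its first base 9 bases from the start on the transcribed side, Itgax held 1 beginning 56 bases before the start and Cd68 held 2, beginning 149 and 24 bases before it. Trem2 held the PU.1 core, beginning 41 bases before the start. None held the E-box. The windows of Cfd and Agt, genes that rose, held none of these letters. A match describes the window and is no evidence of binding.

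The degradative machinery of phagocytes moved with them. Of 30 lysosomal proteases, glycosidases and proton pump subunits, 24 fell and none rose, with a median log2 fold change of -0.81, and every one of the 30 had a negative value. Ctss, cathepsin S, had 88.3, 66.8, 70.2 and 152 CPM in metformin 1, 2, 4 and unmatched and 72, 95.7 and 72 CPM in resveratrol 1, 2 and 3, against 570.1, 677, 683 and 138 CPM in HFD 1, 2, 3 and unmatched. For Ctss, the log2 fold change was -2.55 (SE 0.37, adjusted p = 0.00457). Metformin unmatched lay above HFD unmatched, and the other drug libraries lay below all of HFD. Atp6v0d2, a proton pump subunit of macrophages and osteoclasts, ran at 3.64 to 20.1 CPM in the drug libraries, against 14 to 205 CPM in HFD (log2 fold change -4.19, adjusted p = 0.00465), with overlap. Lipa, lysosomal acid lipase, averaged 113 ± 18.5 CPM with the drugs and 429 ± 192 CPM in HFD (log2 fold change -1.93, adjusted p = 0.00457). Lgmn, legumain, averaged 123 ± 12.1 CPM with the drugs and 317 ± 119 CPM in HFD (log2 fold change -1.36, adjusted p = 0.00526). Without the cilia-rich libraries, 3 drug libraries against 4, 13 lysosomal genes passed in place of 24, while the median was -0.76 and 29 of the 30 values were negative.

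Phagocytic, Fc and scavenger receptors fell in 18 of 26 cases, with no increase and a median of -1.45. Tlr13, an endosomal sensor of bacterial RNA in mice, ran at 5.66 to 14.2 CPM in the drug libraries, against 11.8 to 90.0 CPM in HFD (log2 fold change -2.91, adjusted p = 0.00457). Itgb2, the shared beta chain of leukocyte integrins, averaged 48.2 ± 13.1 CPM with the drugs and 242 ± 114 CPM in HFD (log2 fold change -2.33, adjusted p = 0.00457) without overlap. Clec7a, the beta-glucan receptor dectin-1, averaged 9.53 ± 3.05 CPM with the drugs and 48 ± 24.5 CPM in HFD (log2 fold change -2.33, adjusted p = 0.00519). The median of this list was -1.42 for each drug against the shared HFD libraries. Without the cilia-rich libraries 11 of the 26 fell, with a median of -1.34 and 24 negative values, as many as with them. In that fit 10 pan-macrophage markers fell and 2 rose, 14 lipid-associated macrophage genes fell and none rose, and 9 cytokine and 8 MHC class II genes fell.

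**Figure D2:**
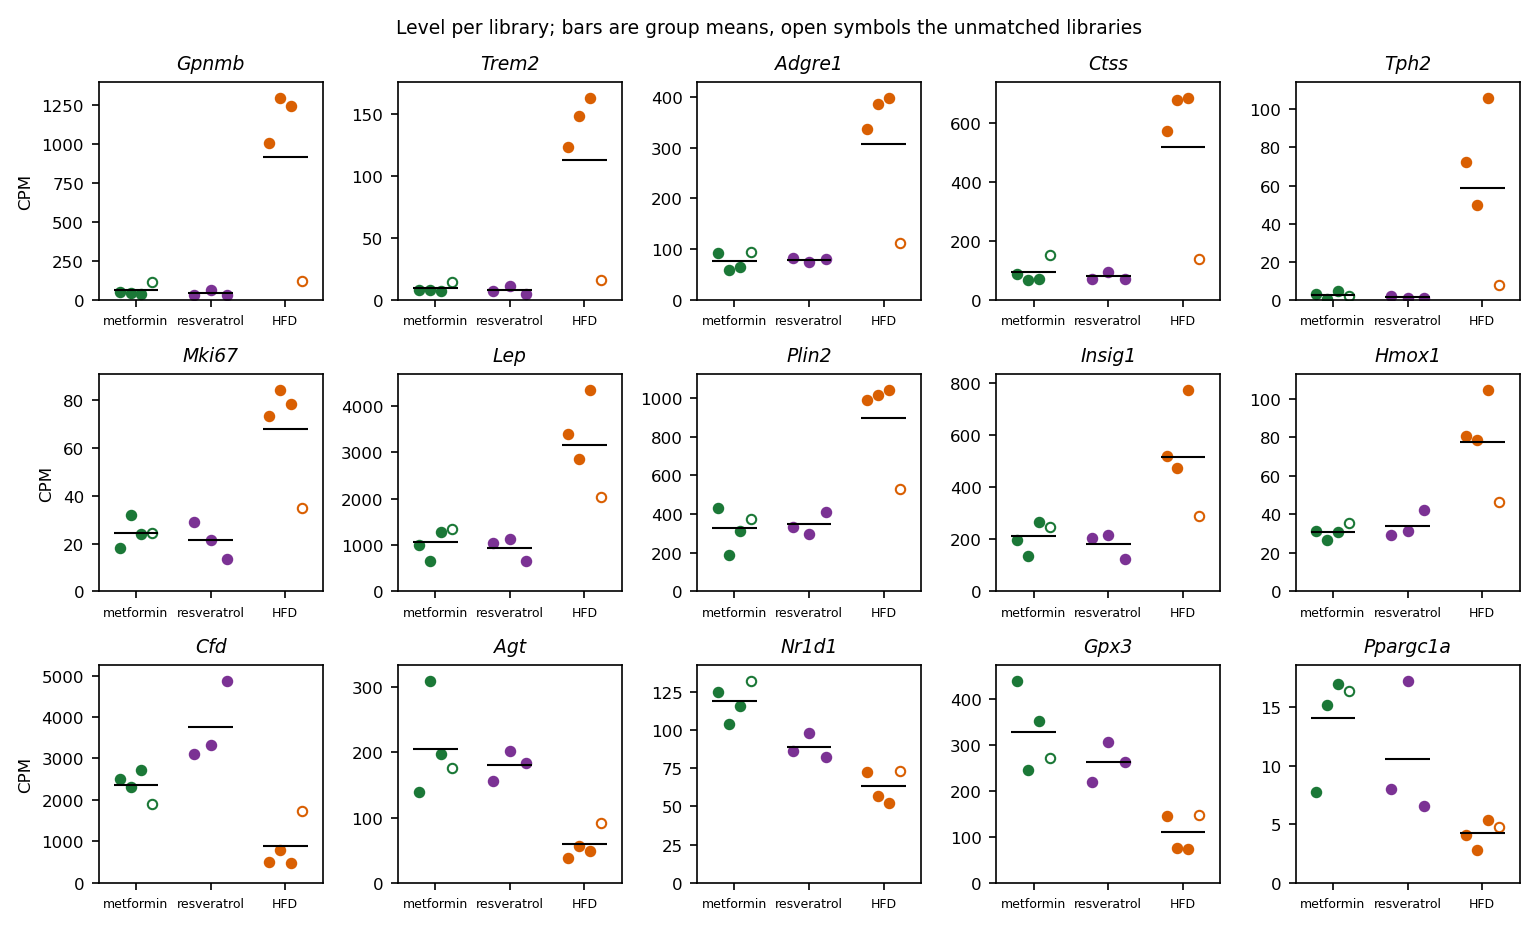
CPM per library for 15 genes, with metformin, resveratrol and HFD from left to right; filled points are libraries matched to a title, open points the 2 unmatched ones, and bars the group means. HFD unmatched lies nearest to the drug libraries in most panels, as for Gpnmb, where it has 122.9 CPM and HFD 1 to 3 have over 1000 CPM.

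Inflammatory messengers fell in part. Of 25 cytokine and chemokine genes tested, 11 fell and none rose, with a median of -0.62; Il6 and Il10, whose counts were too low, were not tested. Tnf, tumour necrosis factor, was scarce at 0.206 to 0.754 CPM in the drug libraries, against 1.02 to 2.27 CPM in HFD (log2 fold change -1.96, adjusted p = 0.00857) and did not overlap. Ccl2, the chemokine that draws monocytes, had 5.34, 2.47, 1.97 and 4.1 CPM in metformin 1, 2, 4 and unmatched and 6.5, 2.75 and 4.6 CPM in resveratrol 1, 2 and 3, against 12.7, 11.3, 17 and 7.8 CPM in HFD 1, 2, 3 and unmatched. For Ccl2, the log2 fold change was -1.62 (SE 0.33, adjusted p = 0.0107). The groups did not overlap, and without HFD 3 it missed the threshold (adjusted p = 0.0546). MHC class II and antigen processing genes fell in 9 of 17 cases (median -0.56, all 17 negative). Cd74, the invariant chain, averaged 433 ± 69.8 CPM with the drugs and 924 ± 210.4 CPM in HFD (log2 fold change -1.09, adjusted p = 0.00457). H2-Eb1, a class II beta chain, averaged 276 ± 47.5 CPM with the drugs and 595 ± 131 CPM in HFD (log2 fold change -1.11, adjusted p = 0.00457), and neither overlapped.

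Other immune lists had few calls. Of 28 interferon-stimulated genes 1 fell, Oas1a, which makes the activator of RNase L, at 7.08 ± 0.851 CPM with the drugs and 12.8 ± 2.16 CPM in HFD (log2 fold change -0.85, adjusted p = 0.00529), and the list's median was -0.01. T and NK cell markers gave 2 decreases among 19 (Trac and Klrb1c). B cell markers gave 1 increase (Mzb1) and 1 decrease (Sdc1) among 15, while 12 of the 15 log2 fold changes were positive and their median was 0.79. Mzb1 was scarce, at 1.825 CPM with the drugs and 0.131 CPM in HFD, with overlap. It missed the threshold in 7 of the 11 fits that leave out 1 library (adjusted p = 0.0516 to 0.1315). With drug as a covariate it missed too (adjusted p = 0.0511), and without the cilia-rich libraries it could not be tested. Neutrophil, mast and dendritic cell markers gave 3 decreases among 17, led by S100a8, a neutrophil calprotectin subunit, at 1.12 to 4.4 CPM in the drug libraries, against 1.86 to 18.6 CPM in HFD (log2 fold change -1.998, adjusted p = 0.0329). S100a8 missed the threshold without metformin unmatched, resveratrol 2, HFD 1, HFD 2 or HFD 3 (adjusted p = 0.0512 to 0.152). Over all genes, 8.71% were lower and 4.83% higher.

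Several of the largest decreases came from genes that are not macrophage markers. Tph2, the neuronal form of the enzyme that starts serotonin synthesis, had 3.01, 0.411, 4.65 and 2.08 CPM in metformin 1, 2, 4 and unmatched and 2.15, 1.1 and 0.958 CPM in resveratrol 1, 2 and 3, against 72.3, 49.6, 106 and 7.74 CPM in HFD 1, 2, 3 and unmatched. For Tph2, the log2 fold change was -4.83 (SE 0.68, adjusted p = 0.00457). Every HFD library exceeded every drug library, although HFD unmatched was well under HFD 1 to 3. Gpr50, a melatonin receptor-related orphan receptor, ran at 0.511 to 8.26 CPM in the drug libraries, against 22.8 to 91.6 CPM in HFD (log2 fold change -4.41, adjusted p = 0.00457). Ubd, the ubiquitin-like protein FAT10, ran at 1.31 to 4.43 CPM in the drug libraries, against 8.22 to 68.5 CPM in HFD (log2 fold change -4.002, adjusted p = 0.00457). Otop1, a proton channel, ran at 0.319 to 3.17 CPM in the drug libraries, against 3.54 to 22.9 CPM in HFD (log2 fold change -3.11, adjusted p = 0.00692), and none of these 3 overlapped. Saa3, an acute-phase protein made by mouse adipocytes and macrophages, averaged 1.92 ± 1.03 CPM with the drugs and 28.1 ± 22.3 CPM in HFD (log2 fold change -3.87, adjusted p = 0.00523). Normal diet libraries averaged 0.28 ± 0.135 CPM of Tph2, 0.246 ± 0.348 CPM of Gpr50 and 0.739 ± 0.115 CPM of Ubd. By drug, Tph2 changed by a log2 fold of -4.53 with metformin and -5.38 with resveratrol, and Gpr50 by -4.01 with metformin and -5.25 with resveratrol; the difference between drugs was not resolved for Gpr50 (metformin minus resveratrol 1.24 on the log2 scale, 95% interval -0.58 to 3.06, adjusted p = 0.802). The rest of the 15 largest decreases included Gdf3, a TGF-beta family ligand (-3.75), Dhrs9, a retinol dehydrogenase (-3.63), Slc37a2, a sugar-phosphate transporter of macrophages (-2.92), Hk3, a myeloid hexokinase (-2.67), Cd300c2 (-2.80) and Trdn, triadin of muscle calcium release (-2.81), each a log2 fold change. Rbm12, an RNA-binding protein gene, completed them at 1.77 to 3.22 CPM in the drug libraries, against 16.3 to 18.2 CPM in HFD (log2 fold change -2.80, adjusted p = 3.96e-05). It was the only gene called for resveratrol alone, but the left-out resveratrol 4 had 24.47 CPM, above every HFD library. With that library added, Rbm12 missed the threshold (log2 fold change -1.74, adjusted p = 0.142). Rbm12 overlaps Cpne1, so reads of the 2 genes may have been shared in counting.

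Some genes of dividing cells fell with the drugs. Of 26 cell cycle genes 10 fell and none rose (median -0.75), and 5 had positive values. Without the cilia-rich libraries 16 fell (median -1.31). Mki67, the proliferation antigen Ki-67, had 18.1, 32.1, 23.8 and 24.2 CPM in metformin 1, 2, 4 and unmatched and 29, 21.4 and 13.6 CPM in resveratrol 1, 2 and 3, against 73.2, 84.3, 78.3 and 34.8 CPM in HFD 1, 2, 3 and unmatched. For Mki67, the log2 fold change was -1.55 (SE 0.26, adjusted p = 0.00549). The groups did not overlap, and HFD unmatched was only just above metformin 2. Ccna2, cyclin A2, averaged 5.24 ± 1.09 CPM with the drugs and 14.5 ± 5.67 CPM in HFD (log2 fold change -1.47, adjusted p = 0.0066). The summed cell cycle genes did not follow the single genes in metformin 2 (689.9 CPM, against 259.5 to 381 CPM in the other drug libraries and 368.5 to 605 CPM in HFD). Spermatogenic genes summed to 3010 CPM in that library, against 7.36 to 65.3 CPM in the other drug libraries, and a link between these sums was not tested. Among 20 p53 target and senescence genes 7 fell and none rose (median -0.45), set beside 8.71% lower over all genes. Bax, a pro-apoptotic effector, averaged 15.7 ± 1.53 CPM with the drugs and 25.2 ± 5.13 CPM in HFD (log2 fold change -0.68, adjusted p = 0.00732). Without the cilia-rich libraries 4 of the 20 fell and 1 rose (median -0.42), and Bax missed the threshold (log2 fold change -0.61, adjusted p = 0.0514).

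Matrix genes fell in 13 of 37 cases and rose in none, with a median of -0.49. The count was 4 lower and 2 higher without the cilia-rich libraries, with a median of -0.42 and 27 of 37 negative values, against 32 with them. Col3a1, type III collagen, had 1215, 1386, 1923 and 2138 CPM in metformin 1, 2, 4 and unmatched and 1972, 1842 and 1314 CPM in resveratrol 1, 2 and 3, against 3687, 4018, 4091 and 1642 CPM in HFD 1, 2, 3 and unmatched. For Col3a1, the log2 fold change was -0.996 (SE 0.25, adjusted p = 0.0268). HFD unmatched lay within the range of the drug libraries, and without HFD 1, 2 or 3 the gene missed the threshold (adjusted p = 0.0869 to 0.108). Col1a1, type I collagen, did not pass at 799.9 ± 225 CPM with the drugs and 1420 ± 454 CPM in HFD (adjusted p = 0.0615), and passed without HFD unmatched (adjusted p = 0.0128). Timp1, an inhibitor of matrix proteases, averaged 1.52 ± 0.658 CPM with the drugs and 6.1 ± 2.88 CPM in HFD (log2 fold change -1.998, adjusted p = 0.0103) and missed the threshold without HFD 3 (adjusted p = 0.0517).

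Some lipid synthesis genes fell. Cholesterol synthesis and SREBP2 targets fell in 11 of 25 cases and rose in none (median -0.48), and 8 fell without the cilia-rich libraries. Insig1, which retains SREBPs in the endoplasmic reticulum and is itself their target, had 196, 134, 266 and 247 CPM in metformin 1, 2, 4 and unmatched and 205, 216 and 124 CPM in resveratrol 1, 2 and 3, against 519.5, 474, 773 and 289 CPM in HFD 1, 2, 3 and unmatched. For Insig1, the log2 fold change was -1.37 (SE 0.26, adjusted p = 0.00916). There was no overlap, and HFD unmatched was the lowest of HFD. Lss, lanosterol synthase, averaged 26.7 ± 3.96 CPM with the drugs and 57.5 ± 18.3 CPM in HFD (log2 fold change -1.11, adjusted p = 0.00568). Dhcr7, the last reductase of the pathway, averaged 10.6 ± 1.67 CPM with the drugs and 22.9 ± 7.51 CPM in HFD (log2 fold change -1.11, adjusted p = 0.00826). Hmgcs1 and Sqle, enzymes of earlier steps, and Srebf2, the regulator SREBP2, did not pass (adjusted p = 0.2771 to 0.9106). Cholesterol efflux and LXR target genes fell in 4 of 15 cases, set beside 8.71% lower over all genes, or in 2 without the cilia-rich libraries. Pltp, a phospholipid transfer protein, averaged 246 ± 50.2 CPM with the drugs and 512 ± 158 CPM in HFD (log2 fold change -1.05, adjusted p = 0.0114) but missed the threshold without HFD 3 (adjusted p = 0.0553).

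Fatty acid synthesis gave 6 decreases among 21 genes and no increase (median -0.41). Acss2, which makes acetyl-CoA from acetate, averaged 102 ± 18.2 CPM with the drugs and 194 ± 36.1 CPM in HFD (log2 fold change -0.93, adjusted p = 0.0057) without overlap. Pgd, a NADPH-producing dehydrogenase, averaged 263 ± 43.2 CPM with the drugs and 425 ± 70.3 CPM in HFD (log2 fold change -0.69, adjusted p = 0.0134), lost without HFD 1 or 3 (adjusted p = 0.0501 to 0.0629). Fasn, fatty acid synthase, did not pass at 3008 ± 832 CPM with the drugs and 4643 ± 984 CPM in HFD (adjusted p = 0.0794), and passed without metformin 4 (adjusted p = 0.0360) and without the cilia-rich libraries (adjusted p = 0.0484). Srebf1 and Scd1, its regulator and the main desaturase, did not pass (adjusted p = 0.5262 and adjusted p = 0.146), although Scd1 passed without metformin 2 (adjusted p = 0.0232). In triglyceride synthesis 4 of 15 fell and 1 rose, set beside 8.71% lower and 4.83% higher over all genes, and 2 fell without the unmatched libraries. Dgat2, the final acyltransferase, ran at 435 to 854 CPM in the drug libraries, against 1079 to 1338 CPM in HFD (log2 fold change -0.88, adjusted p = 0.00932) without overlap, whereas Mogat1, a monoacylglycerol acyltransferase, was higher at 15.6 to 28.9 CPM in the drug libraries, against 7.84 to 14.8 CPM in HFD (log2 fold change 1.07, adjusted p = 0.011); without HFD 3 Mogat1 missed the threshold (adjusted p = 0.0543). Plin2, a lipid droplet coat protein also abundant in foamy macrophages, had 433, 188, 312 and 376 CPM in metformin 1, 2, 4 and unmatched and 331, 298 and 412 CPM in resveratrol 1, 2 and 3, against 989.6, 1016, 1042 and 527 CPM in HFD 1, 2, 3 and unmatched. For Plin2, the log2 fold change was -1.41 (SE 0.23, adjusted p = 0.00529). No drug library reached HFD unmatched. Of 19 lipolysis and droplet genes 3 fell, and of 26 fatty acid oxidation genes 1, against the 8.71% lower over all genes.

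Few adipocyte identity genes passed, and both that did encode secreted factors. Of 24 adipocyte genes 1 fell and 1 rose, and the median was 0.02. Lep, leptin, had 1007, 646, 1292 and 1344 CPM in metformin 1, 2, 4 and unmatched and 1041, 1140 and 649 CPM in resveratrol 1, 2 and 3, against 3398, 2845, 4351 and 2028 CPM in HFD 1, 2, 3 and unmatched. For Lep, the log2 fold change was -1.63 (SE 0.25, adjusted p = 0.00465). The groups did not overlap, and normal diet libraries averaged 402 ± 287 CPM. Cfd, adipsin, a complement protease secreted by adipocytes, had 2511, 2301, 2725 and 1893 CPM in metformin 1, 2, 4 and unmatched and 3098, 3319 and 4864 CPM in resveratrol 1, 2 and 3, against 516, 799, 473 and 1727 CPM in HFD 1, 2, 3 and unmatched. For Cfd, the log2 fold change was 1.75 (SE 0.39, adjusted p = 0.0177). All drug libraries exceeded HFD, but HFD unmatched was near the lowest of them, and without HFD 1, 2 or 3 Cfd missed the threshold (adjusted p = 0.0675 to 0.0678). Adipoq, adiponectin, averaged 2692 ± 929 CPM with the drugs and 2350 ± 464 CPM in HFD (adjusted p = 0.644). Pparg, the adipocyte master regulator, averaged 163 ± 38 CPM with the drugs and 171 ± 26.1 CPM in HFD (adjusted p = 0.818). Retn, resistin, averaged 689.5 ± 159 CPM with the drugs and 396 ± 174 CPM in HFD (adjusted p = 0.0672). Adipoq and Pparg overlapped between the groups, while Retn passed without metformin 2 or HFD unmatched (adjusted p = 0.00790 to 0.0401). In the hypertrophy list 5 of 15 fell, or 3 without the unmatched libraries, and 1 rose. The shares over all genes were 8.71% lower and 4.83% higher. Mest, an imprinted gene that tracks fat pad expansion, was among those that fell. It averaged 514 ± 165 CPM with the drugs and 1282 ± 391 CPM in HFD (log2 fold change -1.32, adjusted p = 0.0118). Its call was lost without HFD 3 (adjusted p = 0.0578).

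Energy sensing is the pathway in which both drugs are usually placed. Of 27 AMPK, sirtuin and PGC-1 genes 3 rose and none fell, set beside 4.83% higher over all genes, with a median of 0.10. Ppargc1a, the coactivator PGC-1 alpha that drives mitochondrial genes, had 7.74, 15.2, 17 and 16.4 CPM in metformin 1, 2, 4 and unmatched and 7.99, 17.2 and 6.58 CPM in resveratrol 1, 2 and 3, against 4.07, 2.79, 5.36 and 4.8 CPM in HFD 1, 2, 3 and unmatched. For Ppargc1a, the log2 fold change was 1.56 (SE 0.34, adjusted p = 0.0151). The groups did not overlap, but the 4 cilia-rich libraries held its 4 highest values, and without them the gene missed the threshold (log2 fold change 0.81, adjusted p = 0.0588), as it did without HFD 1 or 2 (adjusted p = 0.0596 to 0.0604). Sirt3, a mitochondrial deacetylase, averaged 14.3 ± 2.17 CPM with the drugs and 10.1 ± 0.759 CPM in HFD (log2 fold change 0.50, adjusted p = 0.0296). Prkaa1, an AMPK catalytic subunit, averaged 98.6 ± 8.48 CPM with the drugs and 82.1 ± 5.31 CPM in HFD (log2 fold change 0.26, adjusted p = 0.0463). Sirt3 missed the threshold in 6 and Prkaa1 in 9 of the 11 fits that each leave out 1 library (adjusted p = 0.0506 to 0.109 and adjusted p = 0.0527 to 0.151).

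Sirt1, the sirtuin most tied to resveratrol, had 31.1, 36.6, 28.9 and 16.2 CPM in metformin 1, 2, 4 and unmatched and 14.5, 15.1 and 13.6 CPM in resveratrol 1, 2 and 3, against 12.4, 11.7, 11.3 and 13.1 CPM in HFD 1, 2, 3 and unmatched. Every drug library was above every HFD library, yet the gene did not pass. Its log2 fold change was 0.88 (SE 0.30, adjusted p = 0.0716). It passed with drug as a covariate (log2 fold change 0.73, adjusted p = 0.0358), with DESeq2 (adjusted p = 0.0274) and without resveratrol 3 (adjusted p = 0.0496). The excess lay mainly in metformin 1, 2 and 4, and the log2 fold change was 1.22 with metformin and 0.25 with resveratrol (metformin minus resveratrol 0.97 on the log2 scale, 95% interval 0.46 to 1.48, adjusted p = 0.713). That interval is for the gene alone and the p is adjusted over all genes. Prkaa2 and Stk11, the other AMPK catalytic subunit and its kinase LKB1, did not pass (adjusted p = 0.114 and adjusted p = 0.524). Prkaa2 passed without the cilia-rich libraries (log2 fold change 0.44, adjusted p = 0.0486).

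Few mitochondrial and insulin pathway genes passed. None of 35 nuclear oxidative phosphorylation subunits passed in either direction, with a median of 0.04. Mitochondrial transcripts took 1.01% to 1.65% of counts with the drugs and 0.833% to 1.16% in HFD. Of 27 insulin signalling genes 2 rose and 2 fell, which is near the shares over all genes, 4.83% higher and 8.71% lower. Rictor, a subunit of mTOR complex 2, averaged 101 ± 5.09 CPM with the drugs and 81 ± 7.34 CPM in HFD (log2 fold change 0.32, adjusted p = 0.0141). Akt1, the insulin-activated kinase, averaged 109 ± 7.9 CPM with the drugs and 132 ± 6.46 CPM in HFD (log2 fold change -0.28, adjusted p = 0.0263). Ptpn1, a phosphatase of the insulin receptor, ran at 52.3 to 64.1 CPM in the drug libraries, against 63.2 to 86.4 CPM in HFD (log2 fold change -0.45, adjusted p = 0.0117). Leaving out HFD 1 or 3 ended the call of Rictor (adjusted p = 0.0573 to 0.0618). Akt1 lost it without HFD 1, 2 or 3 (adjusted p = 0.0841 to 0.0909), and Ptpn1 without HFD 2 or 3 (adjusted p = 0.0509 to 0.0548). Insr, the insulin receptor, averaged 319 ± 68.4 CPM with the drugs and 228 ± 39.4 CPM in HFD (adjusted p = 0.0815), and Slc2a4, the transporter GLUT4, 125 ± 31.2 CPM with the drugs and 126 ± 20.1 CPM in HFD (adjusted p = 0.991). Insr passed without metformin 2 or HFD unmatched (adjusted p = 0.0385 to 0.0490) and without the cilia-rich libraries (log2 fold change 0.75, adjusted p = 0.04). Irs1 and Irs2 did not pass (adjusted p = 0.143 and adjusted p = 0.308), but Irs1 passed without HFD unmatched (adjusted p = 0.0442) and Irs2 without the cilia-rich libraries (log2 fold change 0.81, adjusted p = 0.0402). In that fit 4 insulin signalling genes rose and 2 fell, while Akt1 and Rictor missed the threshold (adjusted p = 0.0713 and adjusted p = 0.0507). Among thermogenic genes only Ppargc1a of 15 tested passed, and Ucp1 was not tested for lack of counts.

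Branched-chain amino acid breakdown depended on which libraries were compared. None of 23 genes passed, though 20 had positive values and the median was 0.23. Without the cilia-rich libraries 12 rose and 1 fell. Bcat1, the cytosolic transaminase, fell in that fit (log2 fold change -1.43, adjusted p = 0.021). With all libraries it averaged 12.4 ± 4.8 CPM with the drugs and 21.4 ± 2.29 CPM in HFD (adjusted p = 0.0719), and it passed without metformin 2 (adjusted p = 0.0463) and with drug as a covariate (adjusted p = 0.0167). Bcat2, the mitochondrial form found in fat, averaged 85.2 ± 19.4 CPM with the drugs and 78.3 ± 6.22 CPM in HFD (adjusted p = 0.636). Bcat2 rose without the cilia-rich libraries (log2 fold change 0.40, adjusted p = 0.04).

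A few regulators rose. Of 21 circadian clock genes 3 rose and none fell (median 0.27), set beside 4.83% higher and 8.71% lower over all genes. Without the cilia-rich libraries 3 clock genes rose and 2 fell. Nr1d1, the repressor REV-ERB alpha, had 125, 104, 116 and 132 CPM in metformin 1, 2, 4 and unmatched and 86.1, 97.7 and 82.3 CPM in resveratrol 1, 2 and 3, against 72.2, 56.6, 52.5 and 73 CPM in HFD 1, 2, 3 and unmatched. For Nr1d1, the log2 fold change was 0.74 (SE 0.15, adjusted p = 0.0124). All drug libraries were above all HFD libraries. It missed the threshold without HFD 2 or 3 (adjusted p = 0.0543 to 0.0578) and without the cilia-rich libraries (log2 fold change 0.62, adjusted p = 0.0666). Per1 did not pass (adjusted p = 0.0708), and passed without metformin 2 or HFD unmatched (adjusted p = 0.0303 to 0.0331) or the cilia-rich libraries (adjusted p = 0.0420). Time of day at collection is not given in the labels.

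Agt, angiotensinogen, the precursor of angiotensin II that adipocytes also secrete, had 138, 309, 197 and 175 CPM in metformin 1, 2, 4 and unmatched and 156, 202 and 183 CPM in resveratrol 1, 2 and 3, against 38.8, 55.9, 48 and 92.4 CPM in HFD 1, 2, 3 and unmatched. For Agt, the log2 fold change was 1.73 (SE 0.27, adjusted p = 0.00519). No HFD library reached the lowest drug library, the call held in every fit that left out 1 library and without the cilia-rich libraries (log2 fold change 1.44, adjusted p = 0.04), and normal diet libraries averaged 261 ± 29.3 CPM. Anpep, aminopeptidase N, which degrades angiotensin peptides and is abundant on myeloid cells, went the other way at 45.8 ± 11 CPM with the drugs and 188 ± 80.7 CPM in HFD (log2 fold change -2.04, adjusted p = 0.00457).

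Antioxidant genes split. Of 22 NRF2 targets and glutathione enzymes 4 rose and 4 fell, or 2 and 3 without the cilia-rich libraries. The shares over all genes were 4.83% higher and 8.71% lower. Gpx3, a secreted glutathione peroxidase, had 438, 246, 352 and 271 CPM in metformin 1, 2, 4 and unmatched and 219.6, 307 and 263 CPM in resveratrol 1, 2 and 3, against 145, 74.9, 73.5 and 148 CPM in HFD 1, 2, 3 and unmatched. For Gpx3, the log2 fold change was 1.44 (SE 0.26, adjusted p = 0.00732). All drug libraries were above HFD. Gsta4, which conjugates lipid aldehydes, averaged 16.3 ± 3.16 CPM with the drugs and 5 ± 3.94 CPM in HFD (log2 fold change 1.71, adjusted p = 0.0184) and missed the threshold without HFD 1, 2 or 3 (adjusted p = 0.0649 to 0.0744) or the cilia-rich libraries (adjusted p = 0.0712). Hmox1, haem oxygenase 1, which macrophages use to break down haem, had 31.2, 26.7, 30.6 and 35.3 CPM in metformin 1, 2, 4 and unmatched and 29.3, 31.1 and 42.1 CPM in resveratrol 1, 2 and 3, against 80.7, 78.5, 105 and 46.3 CPM in HFD 1, 2, 3 and unmatched. For Hmox1, the log2 fold change was -1.26 (SE 0.19, adjusted p = 0.00457). Drug libraries were all below HFD. Prdx1, a peroxiredoxin, averaged 226 ± 34.9 CPM with the drugs and 397 ± 54 CPM in HFD (log2 fold change -0.81, adjusted p = 0.00465).

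Stress and immediate early genes fell at a few members. Atf3, a stress-induced transcription factor, had 12.3, 6.7, 6.16 and 14.7 CPM in metformin 1, 2, 4 and unmatched and 12.6, 14.8 and 6.77 CPM in resveratrol 1, 2 and 3, against 98.6, 103, 128 and 18 CPM in HFD 1, 2, 3 and unmatched. For Atf3, the log2 fold change was -3.04 (SE 0.44, adjusted p = 0.00457). The groups did not overlap, and HFD unmatched stood just above resveratrol 2. Egr2, a growth-response factor, ran at 1.82 to 5.52 CPM in the drug libraries, against 5.34 to 34.3 CPM in HFD (log2 fold change -2.61, adjusted p = 0.00903) with overlap, and missed the threshold without the cilia-rich libraries (adjusted p = 0.0526). In the immediate early list 4 of 24 fell and 1 rose. For this list and the next, the shares over all genes were 8.71% lower and 4.83% higher. Of 21 endoplasmic reticulum stress genes 8 fell and 1 rose; 4 fell with drug as a covariate, and 3 fell and 2 rose without the cilia-rich libraries. Sdf2l1, an ER chaperone cofactor, averaged 13.7 ± 2.6 CPM with the drugs and 34.4 ± 9.38 CPM in HFD (log2 fold change -1.33, adjusted p = 0.00457). Calr, calreticulin, averaged 351 ± 43.6 CPM with the drugs and 548 ± 77 CPM in HFD (log2 fold change -0.64, adjusted p = 0.00731). Asns, asparagine synthetase, rose (log2 fold change 0.75, adjusted p = 0.0463) but missed the threshold in 8 of the 11 fits that leave out 1 library (adjusted p = 0.0573 to 0.146). None of 15 glucocorticoid receptor and target genes passed.

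**Figure D3:**
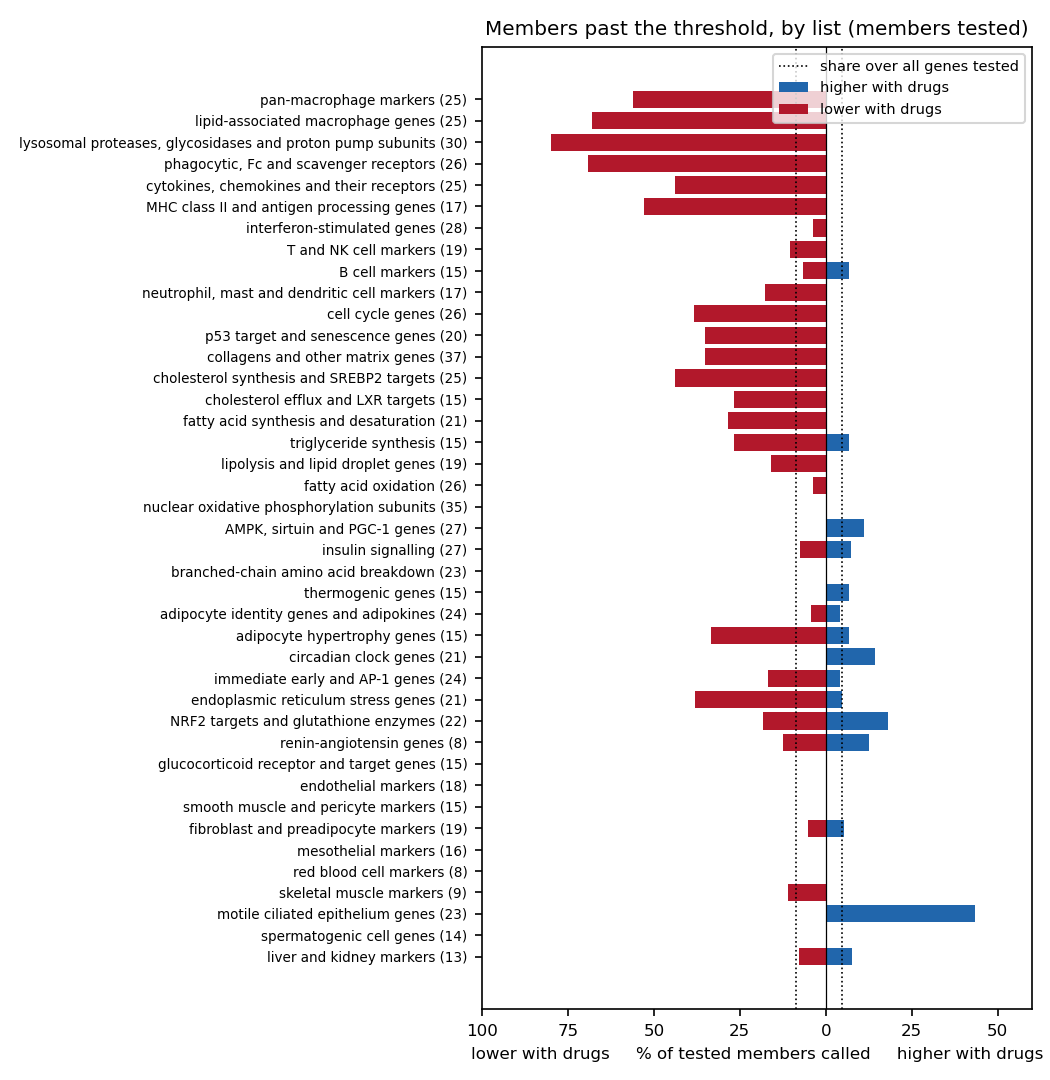
Bars give the share of each list's tested members called lower (left, red) and higher (right, blue) with the drugs, with the number tested in brackets, for lists with at least 8 tested members; dotted lines mark the shares over all genes, 8.71% lower and 4.83% higher. Macrophage, phagocyte and lysosomal lists reach furthest to the left, with 24 of 30 lysosomal genes, and the ciliated epithelium list furthest to the right, with 10 of 23.

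The largest increases were genes of ciliated and other epithelia and were carried by part of the drug libraries. High levels of such genes were not confined to drug-treated fat. Normal diet 2 held 1404 CPM of motile ciliated epithelium genes, against 19.3 to 37.1 CPM in the other normal diet libraries. Normal diet libraries averaged 46.7 ± 93 CPM of Dnah5 and 13.9 ± 26.9 CPM of Epcam. Motile ciliated epithelium genes rose in 10 of 23 cases and fell in none, with a median log2 fold change of 6.35. With drug as a covariate 3 of them rose (median 5.74), and without the 2 unmatched libraries none passed (median 6.32). HFD libraries hold few or no reads of these genes, so fitted folds depend on the prior count. Most of the genes passed the count filter only through the cilia-rich libraries, so a fall could hardly have been seen. Without the cilia-rich libraries 6 of the genes could be tested and none passed. Those libraries were picked by the summed level of this same list, so that outcome was set by the choice. Dnah5, an axonemal dynein heavy chain, had 0.754, 155, 95.1 and 145 CPM in metformin 1, 2, 4 and unmatched and 0.238, 116 and 0.192 CPM in resveratrol 1, 2 and 3, against 0.101, 0.254, 0.309 and 0 CPM in HFD 1, 2, 3 and unmatched. For Dnah5, the log2 fold change was 8.68 (SE 2.33, adjusted p = 0.0357). Metformin 1 and resveratrol 1 and 3 stayed under 1 CPM like HFD, and the 4 cilia-rich libraries were far above. Without metformin unmatched, resveratrol 2 or any HFD library it missed the threshold (adjusted p = 0.0514 to 0.116). Cldn2, a tight junction claudin, ran at 0.238 to 83 CPM in the drug libraries, against 0.103 to 0.203 CPM in HFD (log2 fold change 7.92, adjusted p = 0.0305). Epcam, an epithelial adhesion molecule, ran at 0.298 to 40.4 CPM in the drug libraries, against 0.12 to 0.258 CPM in HFD (log2 fold change 6.77, adjusted p = 0.0296). Slc44a4, a transporter of epithelia, ran at 0.298 to 17.6 CPM in the drug libraries, against 0 to 0.102 CPM in HFD (log2 fold change 8.08, adjusted p = 0.0191), and none of these 3 overlapped. Cldn2 and Epcam missed the threshold without any 1 of the HFD libraries (adjusted p = 0.0514 to 0.111 and adjusted p = 0.0521 to 0.102), and Slc44a4 without HFD 1, 2 or 3 (adjusted p = 0.0727 to 0.083). The 15 largest increases also held Drc1, Ttc16, Ppil6 and Spag8, linked to cilia or sperm, and Slc6a20a, B4galnt3, Lama1, Hunk, Slc6a17 and Fam167a, and each of these 10 missed the threshold without HFD 1, HFD 2 or HFD 3. Slc44a4, Drc1, Slc6a20a and B4galnt3 had enough counts to be tested in only 7 of the 11 fits that leave out 1 library. They could not be tested without the cilia-rich libraries. Adam7, of epididymal principal cells, was called among 5 genes of that duct and the seminal vesicle, at 0 to 25.0 CPM in the drug libraries, against 0 in every HFD library (adjusted p = 0.0440), and missed the threshold in 8 of the 11 fits that leave out 1 library (adjusted p = 0.0556 to 0.116). Of the 37 named genes called higher, 4 kept the call in all 11 fits that leave out 1 library, as did 57 of the 91 called lower.

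**Figure D4:**
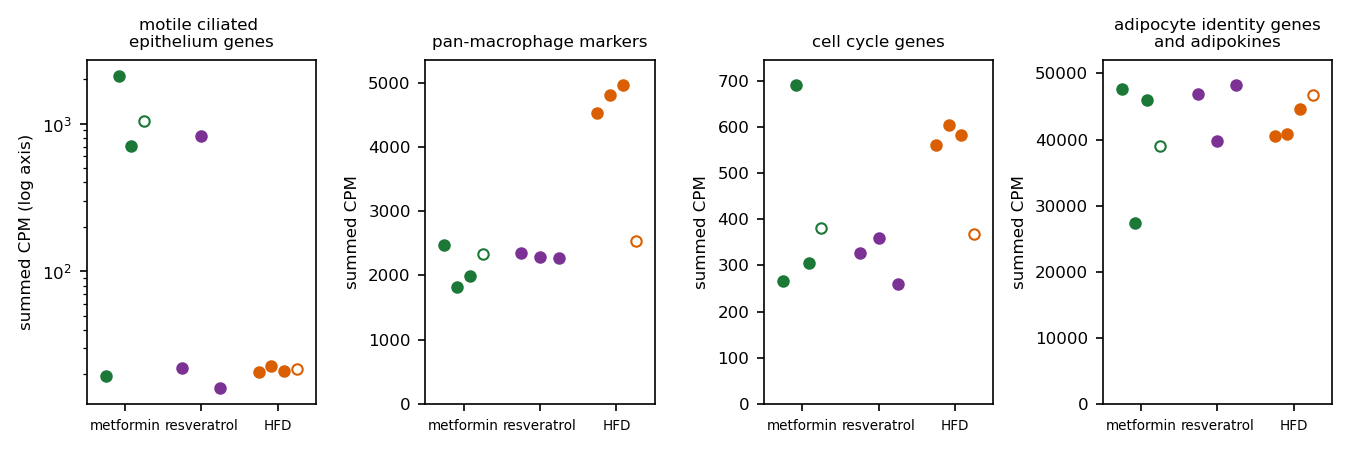
Summed CPM per library of 4 lists, with metformin, resveratrol and HFD from left to right; open points are the unmatched libraries, and the first axis is a log axis. Ciliated genes split the drug libraries into 4 at 701 to 2119 CPM and 3 at 16.1 to 22.2 CPM, while pan-macrophage markers are at 1814 to 2477 CPM in all 7 drug libraries, against 2534 to 4960 CPM in HFD.

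Without the 4 cilia-rich libraries, 1651 genes were called, and 984 of them were shared with the pooled result: 736 lower (50.3% of the genes called lower) and 248 higher (30.5% of those called higher). Genes were then chosen, after their values had been seen, among those called higher in both fits. They were ranked by their log2 fold change without the cilia-rich libraries. Adgrg2, an adhesion receptor of efferent duct epithelium that adipocytes also express, had 50.9, 267, 203 and 239.9 CPM in metformin 1, 2, 4 and unmatched and 60.8, 273 and 75 CPM in resveratrol 1, 2 and 3, against 13.8, 21.3, 14.3 and 31.6 CPM in HFD 1, 2, 3 and unmatched. For Adgrg2, the log2 fold change was 3.05 (SE 0.59, adjusted p = 0.00933). The 4 cilia-rich libraries were highest, and the other 3 drug libraries were still above all of HFD (log2 fold change 1.62, adjusted p = 0.04 without the cilia-rich libraries). Dennd2d, a Rab exchange factor, ran at 20.2 to 38.1 CPM in the drug libraries, against 7.01 to 14.9 CPM in HFD (log2 fold change 1.45, adjusted p = 0.00515). Acot4, a peroxisomal thioesterase in mice, ran at 20.4 to 51 CPM in the drug libraries, against 8.98 to 14.8 CPM in HFD (log2 fold change 1.46, adjusted p = 0.00791). Fign, a microtubule-severing enzyme, ran at 12.4 to 25.6 CPM in the drug libraries, against 5.93 to 10.6 CPM in HFD (log2 fold change 1.24, adjusted p = 0.00898). Cp, ceruloplasmin, the copper-carrying ferroxidase, was called in both fits but was singled out by its values and not by that ranking. It averaged 207 ± 33.5 CPM with the drugs and 102 ± 9.71 CPM in HFD (log2 fold change 1.02, adjusted p = 0.00457). None of these overlapped. Cfd, Gpx3, Agt and Mogat1 also belong to the largest increases by that ranking, as do Nt5e, Dsp, Zbtb5, Bbof1, Map3k19 and Nupr1l. Not all are large with all 7 drug libraries, where the log2 fold change was 0.97 for Zbtb5 and 1.07 for Mogat1. Dsp, desmoplakin, differed in size between the fits, and its log2 fold change was 5.09 with all 7 drug libraries and 1.12 without the 4.

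**Figure D5:**
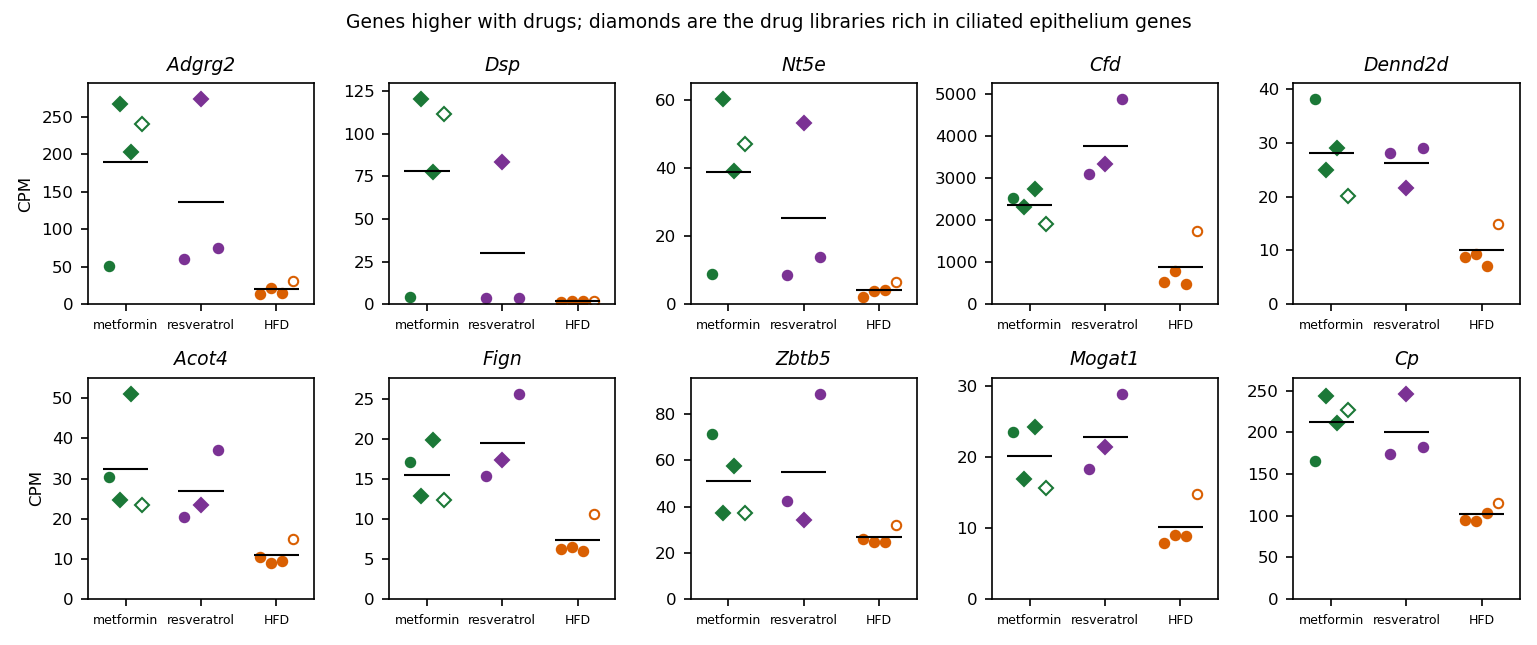
CPM per library for 10 genes higher with the drugs in both fits, with metformin, resveratrol and HFD from left to right; diamonds are the 4 cilia-rich libraries, open symbols the unmatched libraries and bars the group means. Adgrg2, Dsp and Nt5e are highest in the diamonds, while Cfd, Dennd2d and Acot4 have diamonds and circles mixed, all above HFD.

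Few markers of other cells passed. Of 9 skeletal muscle markers 1 fell (Pvalb), and of 19 fibroblast markers 1 rose (Bmp7) and 1 fell (Lum). The shares over all genes were 8.71% lower and 4.83% higher. None of 18 endothelial, 15 smooth muscle and pericyte, 16 mesothelial and 8 red blood cell markers passed, nor did any of 14 spermatogenic and 4 retina genes. Of 13 liver and kidney markers Vil1 rose and Cela1 fell. In the 11 fits that leave out 1 library, Cela1 missed the threshold in 9, Bmp7 in 8, Vil1 in 7 and Lum in 4. Without the cilia-rich libraries Vil1, Bmp7 and Lum missed it (adjusted p = 0.3205, 0.2716 and 0.06303). Pecam1, an endothelial adhesion molecule, averaged 256 ± 58 CPM with the drugs and 256 ± 39.3 CPM in HFD (adjusted p = 0.999), and passed when HFD unmatched and the cilia-rich libraries were left out together (log2 fold change 0.35, adjusted p = 0.0256). Upk3b, a mesothelial uroplakin, was at 119.6 CPM in HFD unmatched, against 6.70 to 16.99 CPM in HFD 1 to 3, and the drug libraries spanned 1.85 to 84.6 CPM (adjusted p = 0.861). The part of cell composition in the decreases was not tested.

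Long non-coding RNAs (lncRNAs) were tested in the same libraries with the mRNA scaling. Of 20503 tested, 1621 (7.91%) passed, 1368 higher (6.67%) and 253 lower (1.23%), but the median of all lncRNAs was shifted by 0.31 on the log2 scale. Scaled on the lncRNA table itself, the median was 0.04 and 784 passed, 231 higher and 553 lower, so the direction of the majority depended on the scaling. Over all lncRNAs, 131, 235 and 120 passed without HFD 1, HFD 2 and HFD 3 in turn. Only 3 lncRNAs with an Ensembl name met the rule for naming. Their values come from the mRNA scaling, and their calls were not followed singly under other scaling or omissions. Trp53cor1, the p53-induced lincRNA-p21, had 3.36, 1.64, 3.64 and 3.55 CPM in metformin 1, 2, 4 and unmatched and 2.62, 2.2 and 1.21 CPM in resveratrol 1, 2 and 3, against 6.33, 5.73, 5.41 and 5.58 CPM in HFD 1, 2, 3 and unmatched. For Trp53cor1, the log2 fold change was -1.14 (SE 0.26, adjusted p = 0.027). All drug libraries lay below HFD. Zfp783, listed as non-coding in the table, averaged 6.15 ± 3.02 CPM with the drugs and 2.77 ± 0.212 CPM in HFD (log2 fold change 1.14, adjusted p = 0.0392), while the mRNA table's gene of that name did not pass (adjusted p = 0.369). Rmst, a neural lncRNA, ran at 0.238 to 34.5 CPM in the drug libraries, against 0 to 0.203 CPM in HFD (log2 fold change 6.96, adjusted p = 0.049), and its high values were those of the 4 cilia-rich libraries.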

How the data were processed

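Total RNA of epididymal fat was sequenced from a TruSeq RNA kit, per the labels. The authors deposited a table of mRNA transcripts and a table of lncRNA transcripts, each with raw read counts and FPKM per library, per the file headers. Per the submitters' processing notes, fastp, HISAT2 and GRCm38 were used; no counting tool or strand setting is named there. The deposited FPKM values, computed by the authors, were used only to check that counts and column names agreed in the libraries matched to a title. The mRNA header has 43 names for 44 cells per line, so its 16 count columns were placed by position, in the order of the last names. The check covered the 14 columns matched to a title, and the 2 unmatched columns of that table were placed by position alone. In 2 count columns the code is in no sample title; they were assigned to HFD and metformin by prefix, and their 4 FPKM columns were left aside.

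The 91879 mRNA transcripts were added up into 27150 genes. The pool (7 libraries) and HFD (4) were compared with edgeR's robust quasi-likelihood test (edgeR 4.0.16, limma 3.58.1, R 4.3.3) after edgeR's default filter on low counts, with TMM scaling and Benjamini-Hochberg adjustment over all features tested at 0.05; adjusted p-values in the text come from it. Log2 fold changes are drugs over HFD. A 3-group fit gave the single-drug and drug-against-drug values. Depth was 13734379 to 20531032 mRNA and 3976504 to 5828645 lncRNA counts per library. Nothing states that libraries of a group came from separate animals, so p-values measure the spread between libraries. Members and gene lists were chosen with earlier results of these data known. Genes were named as the 15 largest called increases and decreases without overlap and with a mean of at least 5 CPM in the higher group, the 4 called members of each of 43 lists with the largest change (the first 2 tested where none was called), up to 5 lncRNAs per direction, and a set of genes of known roles; others are said to be chosen after their values were seen. Lists are described by counts and medians without a test. Each count is to be read beside the shares over all genes, 4.83% higher and 8.71% lower. Alternatives were DESeq2 1.42.0, RLE scaling, no count filter, each library left out, drug as a covariate, the Crisp1-high library added, and all libraries, among others. Tested on simulated data, the pooled comparison over 16802 genes recovered 53% of genes changed by a log2 of 1 and 80% at 2, with 5 false calls. The simulated libraries were independent, with no cilia-rich libraries and no HFD library apart from the rest. The changed genes were taken from those with more counts, so these rates may not hold for the real libraries. Results for a few genes are not reported here.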

Additional observations from a re-analysis of the deposited data

Results flagged for a closer look

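Of 114 groups of 4 libraries examined for the named genes, 11 held 1 library far from the others, and chance flags about 1 in 20 groups. Metformin unmatched stood above the other metformin libraries for 5 genes that fell with the drugs. It had 117.8 CPM of Gpnmb, against 39.9 to 47.8 CPM in the others, 14.49 CPM of Trem2, against 6.82 to 7.99 CPM, and 39.31 CPM of Itgax, against 12.7 to 16.1 CPM. It had 24.17 CPM of Slc37a2, against 12.8 to 13.5 CPM, and 8.256 CPM of Gpr50, against 1.12 to 2.33 CPM. HFD unmatched differed from HFD 1 to 3 with 3044 CPM of Adipoq, against 2087 to 2176 CPM, and with 739.3 CPM of Col1a1, against 1632 to 1675 CPM. Metformin 1, which is not cilia-rich, had 2.329 CPM of Slc6a17, against 19.3 to 21.3 CPM in the other metformin libraries. The other 3 cases are single reads or a few: Slc44a4 at 0.1015 CPM in HFD 2 and 0 in the other HFD libraries, Slc6a20a at 0 in HFD 1 against 0.0507 to 0.06 CPM, and Ttc16 at 0.2513 CPM in HFD 1 against 0.355 to 0.361 CPM. Outside the comparison, the left-out resveratrol 4 held 12130 CPM of Crisp1, against at most 16.3 CPM in any library of the comparison.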

How the results depend on the processing

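The count of 2275 genes became 682 to 2939 when 1 library at a time was left out, with both ends from HFD libraries. DESeq2 called 4458 (2194 higher, 2264 lower), adding the Crisp1-high library gave 570, and fitting all 16 libraries 932. Leaving out HFD unmatched and the cilia-rich libraries together, chosen after seeing the data, gave 4951, and there the endothelial markers Pecam1 (0.35, adjusted p = 0.0256) and Cdh5 (0.31, adjusted p = 0.0225) passed with positive log2 fold changes, against -0.000454 and -0.07 in the comparison; the cause was not tested. RLE scaling (2300), no filter (1602), drug as a covariate (1814), a ciliated score as a covariate (1821), no unmatched library (2505) and no cilia-rich library (1651) stayed within 1.5 times. Between metformin and resveratrol DESeq2 called 41, and single omissions 0 to 2. The 1621 lncRNAs became 784 with lncRNA scaling and 545 unfiltered, and single omissions gave 120 to 2034. List members called numbered 206, and 178 to 217 under the 3 alternatives run. With the Crisp1-high library 74 of the 128 named genes called in the comparison lost their call, among them Lep and Plin2. No paired analysis was possible because replicate numbers were given in accession order and pair no libraries. Counting depth limits genes near 1 CPM, and intervals cover counting and library spread only.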

Other observations

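Replication-dependent histone genes, taken up after their values had been seen, were lower with the drugs: 47 of 65 tested passed, none higher, with a median log2 fold change of -1.28, and in 35 the groups did not overlap. The shares over all genes were 8.71% called lower and 5.54% lower without overlap. Hist1h3h, a histone H3 gene, averaged 10.2 ± 1.56 CPM with the drugs and 34.4 ± 9.81 CPM in HFD (log2 fold change -1.75, adjusted p = 0.00457). Near-identical copies share reads, so single genes of this family are uncertain.

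Cyp2e1, an ethanol- and ketone-oxidising cytochrome P450 of liver and fat, ran at 762 to 2234 CPM with the drugs, against 152 to 228 CPM in HFD 1 to 3, but HFD unmatched had 1405 CPM and the gene did not pass (adjusted p = 0.131). Normal diet libraries were at 2504 to 4104 CPM. Liver secretory genes varied within the pool: Alb, albumin, had 1087 CPM in metformin 4, against 26.7 to 237 CPM in the other drug libraries and 7.48 to 127 CPM in HFD (adjusted p = 0.151). Rbm12 stood apart in another way, since HFD unmatched sided with HFD 1 to 3 (all 16.3 to 18.2 CPM) and not with the drug libraries of the comparison. The left-out resveratrol 4, at 24.47 CPM, sided with HFD too. Normal diet libraries averaged 2.31 ± 0.277 CPM of Rbm12. Its overlapping neighbour Cpne1 averaged 37.1 ± 7.75 CPM with the drugs and 35.6 ± 5.47 CPM in HFD (adjusted p = 0.819).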
